A study of Mus musculus with 4 samples.

Results

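The WNT system of cultured mouse macrophages was examined through 44 genes among the 19505 genes measured: 19 WNT ligands, 10 Frizzled receptors, the co-receptors Lrp5 and Lrp6, 4 R-spondins, and 9 genes of secreted inhibitor families (4 SFRP, 4 DKK and Wif1). They were chosen by gene symbol alone, and each was read by 1 probe set. Macrophages had been grown from femoral bone marrow of 2 wild-type (WT) mice and 2 mice labelled Hem1 KO, with 1 array per mouse. Hem1 is the blood-cell subunit of the WAVE complex, which drives branched actin assembly, and is encoded by Nckap1l. All cultures were kept for 8 days in RPMI with 10% serum and 20% medium conditioned by L929 cells, a fibroblast line that releases the macrophage growth factor CSF1. No source used here gives the allele, strain or age of the mice. The cultures were whole populations, so that more cells of a type and more RNA per cell cannot be told apart.

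WNT proteins are secreted lipid-modified signals that bind Frizzled receptors together with LRP5 or LRP6. Binding halts the destruction of beta-catenin, which then acts with TCF and LEF factors on target genes, while other WNT signals run through receptors such as ROR2, RYK and PTK7 without beta-catenin. R-spondins strengthen the signal by binding LGR receptors and removing the ligases that degrade Frizzled. SFRP proteins and WIF1 bind WNT proteins outside the cell, and DKK1 blocks LRP5 and LRP6. In bone marrow, stromal cells and osteoblast precursors are well-known sources and targets of WNT signals.

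Values are log2 signals, and differences are Hem1 KO minus WT with limma's standard error (SE). A gene was called at a Benjamini-Hochberg adjusted p under 0.05 over all genes. Nckap1l was 11.37 and 11.11 in WT cultures against 10.04 and 9.62 in Hem1 KO cultures, replicates 1 and 2 in turn, as are all pairs of values here. Its difference was -1.41 (SE 0.32, adjusted p = 0.0467). The call was lost when WT replicate 1 (-1.28), WT 2 (-1.54) or Hem1 KO 2 (-1.20) was left out, with adjusted p-values from 6.61e-10 to 0.381 over all alternatives. Whether its probes lie in the deleted part is not given, so that this is no firm check of the labels. All 11 macrophage markers measured, such as Csf1r and Adgre1, lay above background on each array. Background was the 95th percentile of 1450 chemosensory receptor genes on the same array, at 5.38 to 6.04. Hem1 KO replicate 1 had the narrowest spread of values, with an SD of 2.00, where the others had 2.15, and held the highest value of the 4 arrays for 37 of the 44 genes, as for 51.2% of all genes.

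Of the 44 genes, 5 were higher in the Hem1 KO macrophages and 0 were lower. The higher ones were the inhibitor gene Sfrp4, the DKK family gene Dkk3, the R-spondin genes Rspo3 and Rspo2, and the receptor gene Fzd2. Over all genes, limma called 1.48% higher and 0.133% lower, against 11.4% of the 44 higher. At an unadjusted p under 0.05, 6 of the 44 were higher and 0 lower, beside 3.63% and 1.57% of all genes. The other 39 genes did not pass, and 30 of the 44 lay above background on both arrays of at least 1 genotype.

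The share called over all genes depended on the arrays used. Fits without an array hold 1 culture of a genotype and take no account of a gene's own spread. Calls kept or lost in them, here and below, are description and no support. Limma called 288 genes higher and 26 lower, against 185 and 54 without WT replicate 2. Leaving out Hem1 KO replicate 1 gave 270 and 101, and leaving out Hem1 KO replicate 2 gave 545 and 53. Among the 44 genes the same 5 were called when replicate 1 of either genotype was left out. The call of Rspo2 was lost without WT replicate 2. Leaving out Hem1 KO replicate 2 added Sfrp1. The median difference of the 44 genes was 0.11, beside 0.01 for all genes. It was -0.25 without Hem1 KO replicate 1 (all genes -0.18) and 0.52 without Hem1 KO replicate 2 (all genes 0.21).

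**Figure D1:**
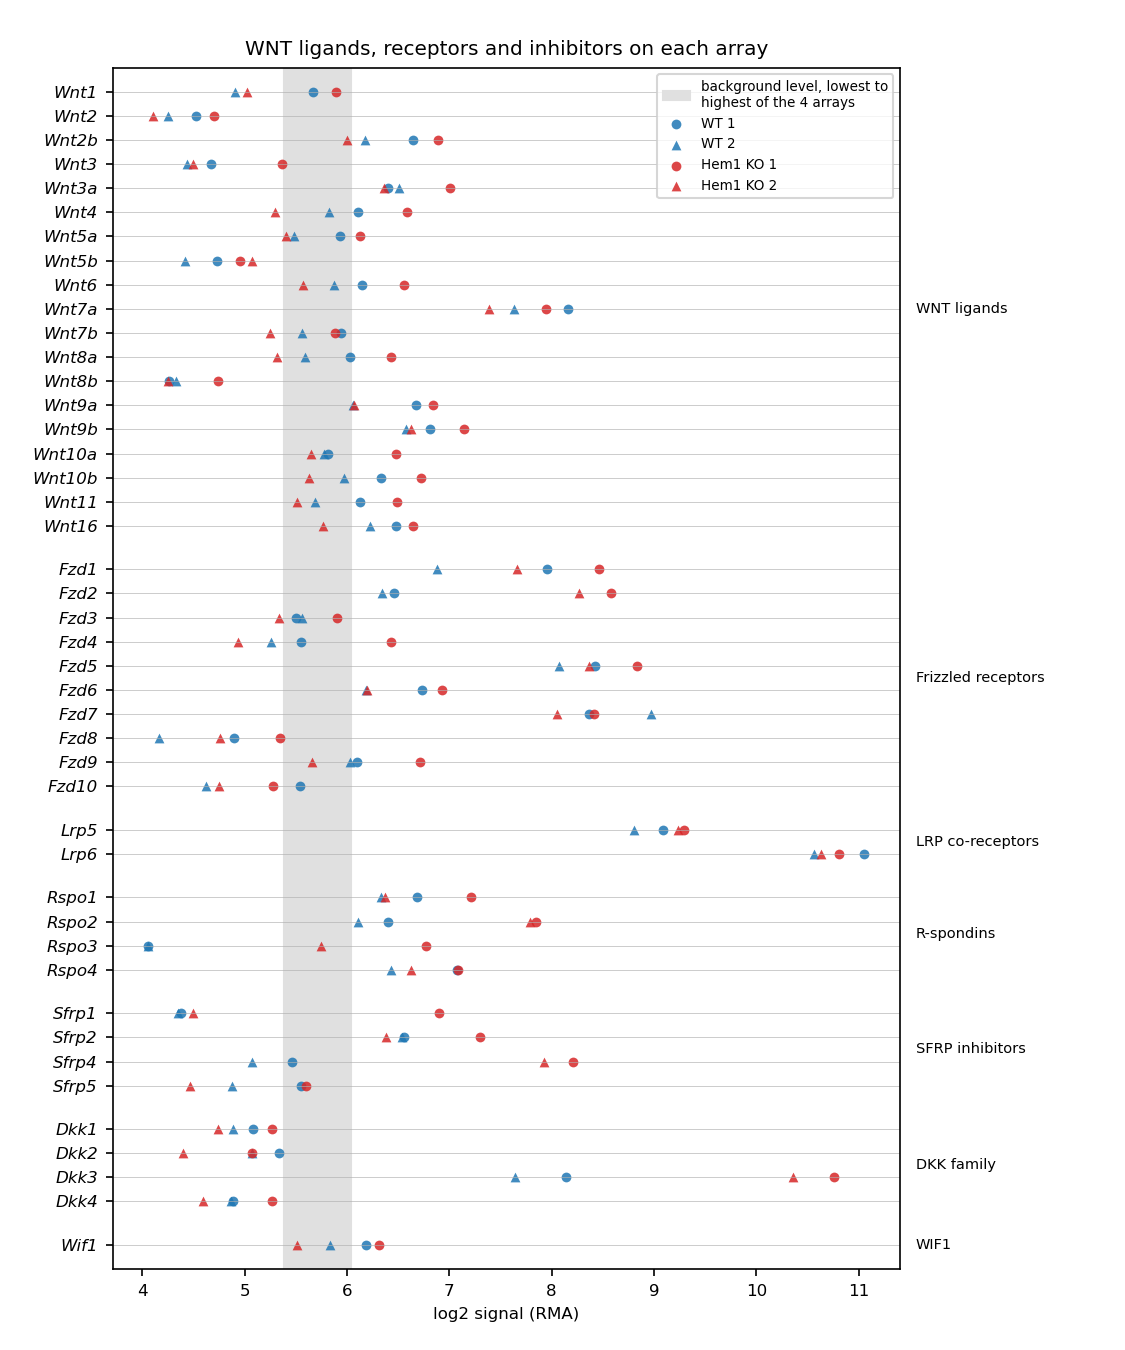
Log2 RMA signal (x axis) of the 44 genes (rows, by family) on each of the 4 arrays, with WT in blue, Hem1 KO in red, circles for replicate 1 and triangles for replicate 2. The grey band spans the arrays' background levels, 5.38 to 6.04. Both red symbols lie far to the right of both blue ones for Sfrp4, Dkk3, Rspo3, Fzd2 and Rspo2, while for most ligands the colours overlap.

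None of the 19 WNT genes was called in either direction by limma, and 0 had an unadjusted p under 0.05. Their differences ran from -0.23 for Wnt7a to 0.44 for Wnt5b, with a median of 0.06. The lowest limit of any ligand's 95% confidence interval was -0.97 (Wnt7a) and the highest was 1.14 (Wnt3). Intervals differed by gene, with -0.71 to 0.74 for Wnt2. All of them included 0, and changes within a gene's own interval cannot be set aside.

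Wnt7a, a ligand known from limb and nervous system patterning, was 8.16 and 7.63 in WT cultures against 7.94 and 7.38 in Hem1 KO cultures. It stood above background on all arrays, and the genotypes overlapped. Wnt9b, known from kidney development, was 6.81 and 6.58 in WT cultures against 7.14 and 6.62 in Hem1 KO cultures. Wnt3a, a ligand of the beta-catenin route, was 6.40 and 6.51 in WT cultures against 7.01 and 6.36 in Hem1 KO cultures. For both, Hem1 KO replicate 1 was highest and the other Hem1 KO array lay within or below the WT range.

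Several ligand genes lay just above background in all cultures. Wnt9a was 6.67 and 6.06 in WT cultures against 6.84 and 6.06 in Hem1 KO cultures. Wnt2b was 6.65 and 6.18 in WT cultures against 6.89 and 6.003 in Hem1 KO cultures. Wnt16 was 6.48 and 6.22 in WT cultures against 6.64 and 5.76 in Hem1 KO cultures. In these genes the spread between replicates was wider than the gap between genotypes.

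Wnt10b, a ligand tied to bone formation over fat, was 6.34 and 5.97 in WT cultures against 6.73 and 5.63 in Hem1 KO cultures. Wnt6 was 6.14 and 5.87 in WT cultures against 6.56 and 5.57 in Hem1 KO cultures. Wnt11, which acts mostly without beta-catenin, was 6.13 and 5.69 in WT cultures against 6.49 and 5.51 in Hem1 KO cultures. Again the Hem1 KO arrays lay on either side of the WT arrays.

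Other ligand genes rose over background on part of the arrays. Wnt4 was 6.11 and 5.83 in WT cultures against 6.59 and 5.30 in Hem1 KO cultures, the last value below background. Wnt8a was 6.03 and 5.59 in WT cultures against 6.43 and 5.31 in Hem1 KO cultures. Wnt7b, 5.94 and 5.56 in WT, was at 5.88 and 5.24 in Hem1 KO cultures, both of these under background. Wnt5a, a ligand of the beta-catenin independent route that inflammatory macrophages are known to make, was 5.93 and 5.48 in WT cultures against 6.13 and 5.40 in Hem1 KO cultures. Wnt10a was 5.81 and 5.77 in WT cultures against 6.48 and 5.65 in Hem1 KO cultures. Both were above background in both Hem1 KO cultures and in 1 of 2 WT cultures, without a gap between the genotypes.

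The other 5 ligand genes (Wnt1, Wnt2, Wnt3, Wnt5b and Wnt8b) lay below background on all 4 arrays. Wnt5b was the only ligand gene of the 19 with both Hem1 KO values (4.95 and 5.07) above both WT values (4.72 and 4.41), a separation seen in 12.5% of all genes. For 16 of the 19 ligand genes the highest of the 4 values was that of Hem1 KO replicate 1, and for 14 the lowest was that of Hem1 KO replicate 2.

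Among the 12 receptor genes, Fzd2 was higher in the Hem1 KO macrophages and 0 were lower. Fzd2, a receptor for WNT5A and WNT3A, was 6.46 and 6.35 in WT cultures against 8.58 and 8.27 in Hem1 KO cultures. Both WT values sat within 1 log2 unit of background, and both Hem1 KO values were well over it. The difference was 2.02 (SE 0.32, adjusted p = 0.00377), a 4.06-fold rise. When single arrays were left out, it ran from 1.86 to 2.18.

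No other Frizzled gene passed. Fzd1 was 7.96 and 6.88 in WT cultures against 8.46 and 7.66 in Hem1 KO cultures, with a difference of 0.64 and a 95% interval of -0.23 to 1.52. Fzd5, which macrophages are known to use for WNT5A, was 8.42 and 8.07 in WT cultures against 8.84 and 8.37 in Hem1 KO cultures. Fzd7 was 8.37 and 8.97 in WT cultures against 8.41 and 8.05 in Hem1 KO cultures, with a difference of -0.44 and an interval of -1.16 to 0.29. These 3 receptor genes were above background in every culture, and the genotypes overlapped.

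Fzd6 was 6.73 and 6.19 in WT cultures against 6.93 and 6.20 in Hem1 KO cultures. Fzd9 was 6.09 and 6.02 in WT cultures against 6.72 and 5.66 in Hem1 KO cultures. Fzd3, Fzd4, Fzd8 and Fzd10 did not reach background on both arrays of either genotype. Among them Fzd4 had the widest pair, with 6.43 and 4.94 in Hem1 KO against 5.55 and 5.25 in WT cultures.

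The co-receptor genes were present in all cultures. Lrp6 was 11.05 and 10.57 in WT cultures against 10.81 and 10.64 in Hem1 KO cultures, a difference of -0.09 with an interval of -0.79 to 0.61. Lrp5, in which mutations alter bone mass, was 9.09 and 8.81 in WT cultures against 9.29 and 9.23 in Hem1 KO cultures. Both Hem1 KO values of Lrp5 were above both WT values, but the difference of 0.31 (interval -0.36 to 0.99) did not pass. Thus 1 of 10 Frizzled and 0 of 2 LRP genes were called higher by limma, against 1.48% of all genes, and Fzd2 alone of the 12 had an unadjusted p under 0.05.

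**Figure D2:**
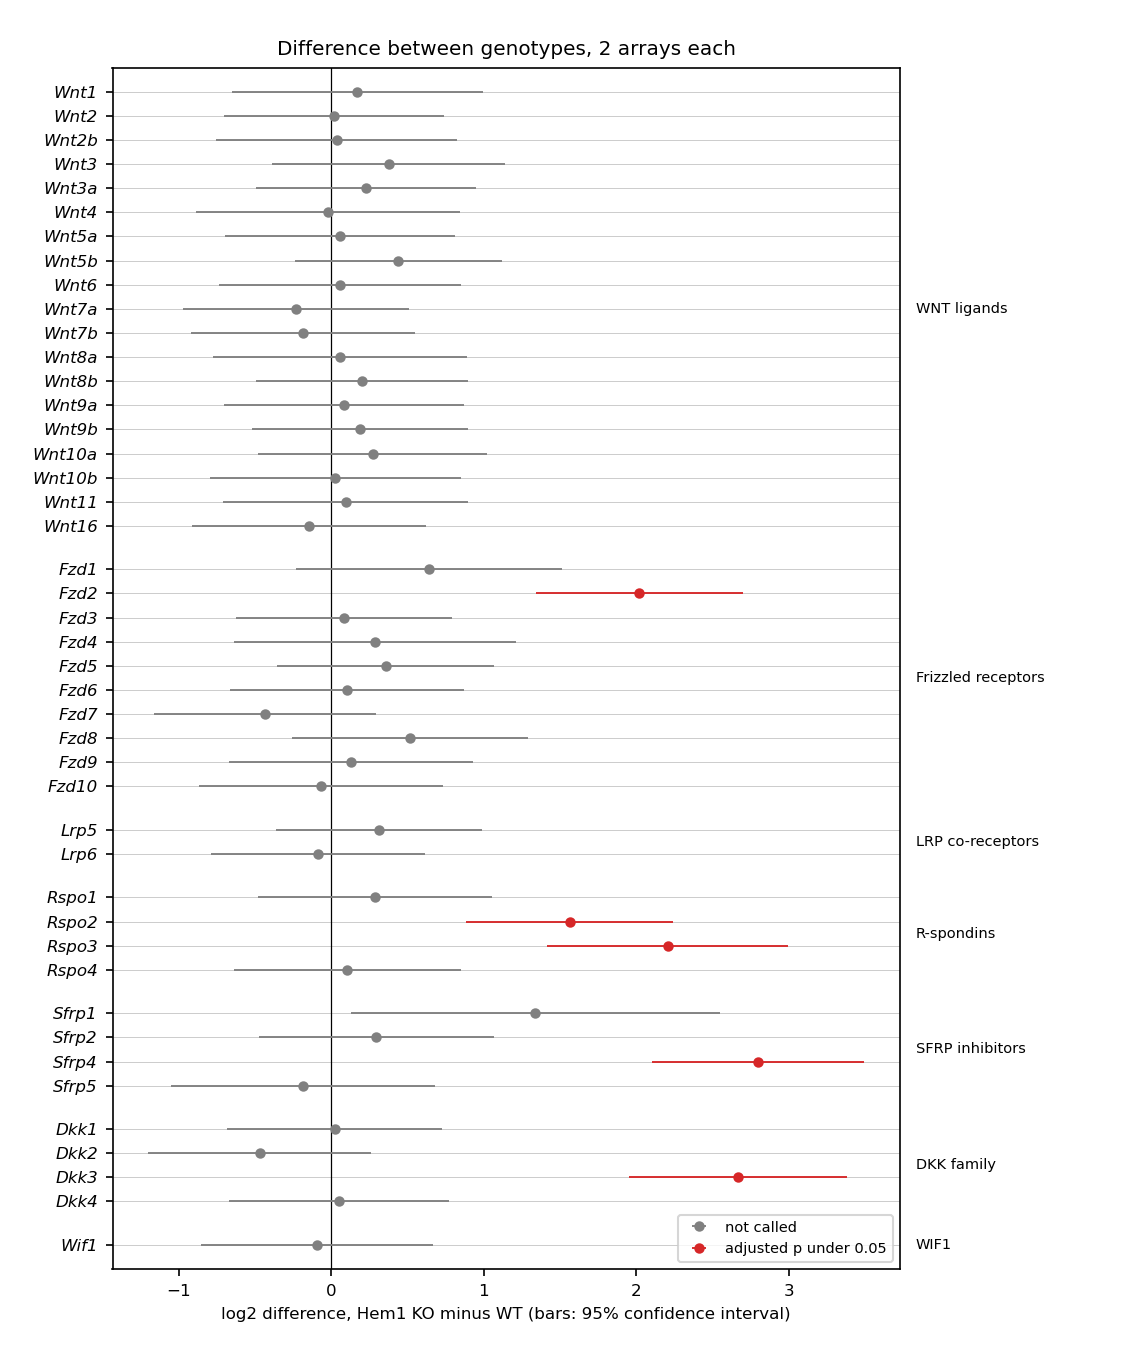
Log2 difference, Hem1 KO minus WT, of each of the 44 genes (rows, by family) with its 95% confidence interval from limma, 2 arrays per genotype. Called genes are red. The 5 called genes lie between 1.56 and 2.80, all 19 ligand intervals include 0, and Sfrp1 has the widest interval.

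R-spondin genes, whose products amplify WNT signals, were higher for 2 of 4 members, against 1.48% of all genes. Rspo3 was 4.06 and 4.06 in WT cultures against 6.78 and 5.75 in Hem1 KO cultures. It was below background in both WT cultures and above it in both Hem1 KO cultures, with replicate 1 the higher of these. The fitted difference was 2.21 (SE 0.37, adjusted p = 0.00577). Because the WT values lie under background, the rise is given as at least 1.48-fold: the Hem1 KO mean was set against background in place of each WT value that lay under it. Here and below, such an "at least" refers to the unknown WT level alone. It leaves out the spread between arrays and is no confidence limit. Without Hem1 KO replicate 1 the difference was 1.69 and without Hem1 KO replicate 2 it was 2.72.

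Rspo2 was 6.40 and 6.11 in WT cultures against 7.85 and 7.79 in Hem1 KO cultures. The replicates of each genotype lay close together, and the gap between genotypes was wider. The difference was 1.56 (SE 0.31, adjusted p = 0.0200), a 2.96-fold rise. Without WT replicate 2 it was 1.42 and no longer called (adjusted p = 0.240, with 0.000206 to 0.240 over all alternatives).

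The other R-spondin genes differed less than their replicates. Rspo1 was 6.68 and 6.33 in WT cultures against 7.21 and 6.38 in Hem1 KO cultures, a difference of 0.29 (interval -0.48 to 1.05). Rspo4 was 7.07 and 6.43 in WT cultures against 7.09 and 6.63 in Hem1 KO cultures, a difference of 0.11 (interval -0.64 to 0.85). Both were above background on every array.

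The secreted inhibitor families held the largest differences of the 44 genes. Sfrp4, whose product binds WNT proteins and limits their action on bone, was 5.46 and 5.07 in WT cultures against 8.21 and 7.92 in Hem1 KO cultures. Both WT cultures were under background and both Hem1 KO cultures were far over it. Sfrp4 was at least 5.18-fold higher in the Hem1 KO macrophages (fitted difference 2.80, SE 0.32, interval 2.10 to 3.50, adjusted p = 0.000923). When single arrays were left out, its difference ran from 2.61 to 2.99.

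Sfrp1, another WNT-binding inhibitor gene, was split within the knockouts. It was 4.37 and 4.35 in WT cultures against 6.90 and 4.50 in Hem1 KO cultures, so that only Hem1 KO replicate 1 rose over background. The difference of 1.34 (SE 0.56) had an unadjusted p of 0.0328 and an adjusted p of 0.751. Without Hem1 KO replicate 1 the difference was 0.14, and without Hem1 KO replicate 2 it was 2.54.

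Sfrp2 was 6.55 and 6.54 in WT cultures against 7.30 and 6.38 in Hem1 KO cultures, and the Hem1 KO arrays lay on either side of WT. Sfrp5 did not exceed background on any array. Thus 1 of 4 SFRP genes was called higher and 0 lower, against 1.48% and 0.133% of all genes. Wif1, whose product also binds WNT proteins, was 6.18 and 5.83 in WT cultures against 6.31 and 5.51 in Hem1 KO cultures, with a difference of -0.09 (interval -0.86 to 0.67).

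Dkk3 was 8.14 and 7.64 in WT cultures against 10.76 and 10.36 in Hem1 KO cultures. It encodes a divergent DKK protein, for which, unlike DKK1, blocking of LRP5 and LRP6 is not established. WT cultures held a clear signal as well, and the gap between genotypes was far wider than either pair. The difference was 2.67 (SE 0.33, adjusted p = 0.00139), a 6.35-fold rise, and it ran from 2.42 to 2.92 when single arrays were left out.

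The classical inhibitor genes of the family gave no signal. Dkk1, Dkk2 and Dkk4 did not reach background on any array and read 4.40 to 5.33. Dkk2 was the only one of the 44 genes with both Hem1 KO values (5.067 and 4.40) below both WT values (5.33 and 5.069), a separation seen in 13.3% of all genes. Its difference of -0.47 (interval -1.20 to 0.26) did not pass. In all, 8 of the 44 genes (18.2%) had both Hem1 KO values above both WT values, beside 12.5% of all genes.

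**Figure D3:**
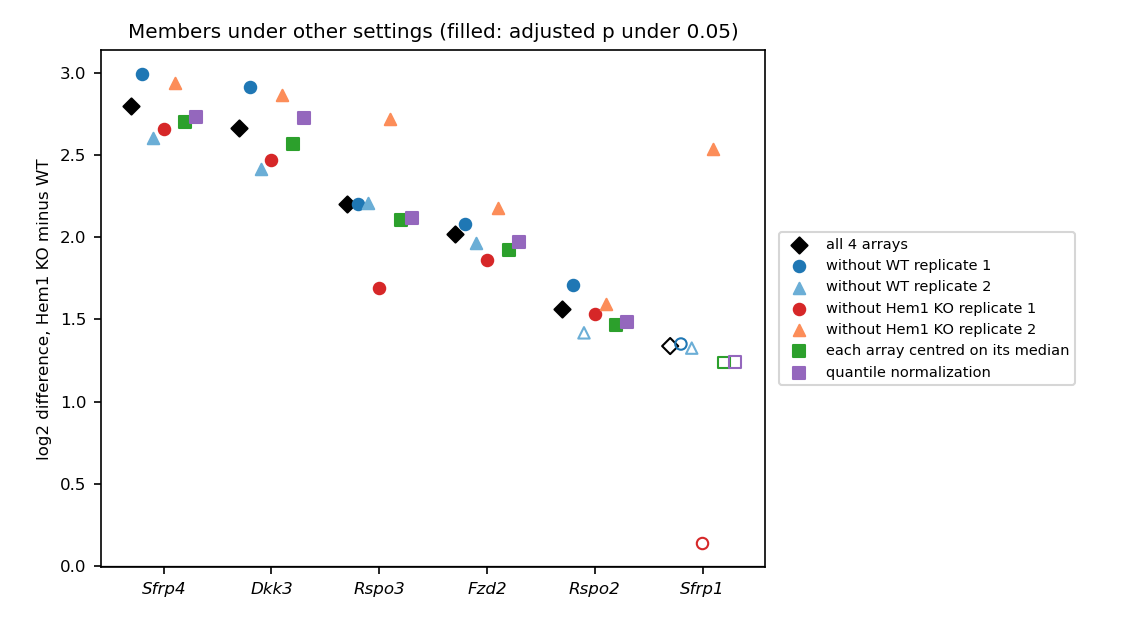
Log2 difference, Hem1 KO minus WT, of the 5 called genes and Sfrp1 with all 4 arrays, without each array in turn, and after centring or quantile normalization. Filled symbols mark an adjusted p under 0.05, which does not measure a gene's own spread in the fits without an array. The 5 called genes stay between 1.42 and 2.99, with Rspo2 uncalled only without WT replicate 2, while Sfrp1 runs from 0.14 to 2.54.

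Genes outside these families also make or shape WNT proteins. The gene lists used below share some genes, such as Notum, which is in those of release, other modulators and targets. Among 10 genes of WNT acylation, deacylation and release, limma called 0 in either direction, beside 1.48% of all genes higher and 0.133% lower. Of these 10, 0 had an unadjusted p under 0.05, and the median difference was -0.18. The differences of 8 were below 0 and those of 2 above. Both Hem1 KO values lay below both WT values for 5 of the 10, beside 13.3% of all genes. Those with the smallest p were the retromer subunit gene Vps26a (-0.43) and the cargo receptor gene Tmed10 (-0.34). Among 18 other extracellular or membrane modulators, 2 were higher (11.1%, against 1.48% of all genes) and 0 lower, with a median of 0.23. Gpc4, a heparan sulfate proteoglycan that holds WNT proteins at the cell surface, was 4.87 and 4.50 in WT cultures against 7.82 and 7.29 in Hem1 KO cultures. It was at least 3.63-fold higher (fitted difference 2.87, adjusted p = 0.000923). Cthrc1, a secreted protein that favours polarity signalling over beta-catenin, was 5.49 and 5.24 in WT cultures against 7.09 and 6.94 in Hem1 KO cultures. That rise was at least 2.50-fold (fitted difference 1.65, adjusted p = 0.0139), and without WT replicate 2 the call was lost (1.53). This list had 1 gene higher without WT replicate 2 and 4 with Hem1 KO replicate 2 left out.

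Among 17 measured genes of alternative receptors, co-receptors and planar polarity, 2 were higher (11.8%, against 1.48% of all genes) and 0 lower. Their median was 0.42. Ptk7, a planar polarity receptor, was 6.60 and 5.85 in WT cultures against 9.10 and 8.57 in Hem1 KO cultures (6.13-fold, difference 2.61, SE 0.36, adjusted p = 0.00218). Ryk, a WNT-binding receptor with an inactive kinase, was 7.74 and 7.89 in WT cultures against 10.20 and 9.67 in Hem1 KO cultures (4.35-fold, difference 2.12, SE 0.33, adjusted p = 0.00352). For both, the genotypes were separated by more than the replicates. Among the 4 measured R-spondin receptors and their ligases, limma called 0, beside 1.48% of all genes higher and 0.133% lower. Of these 4, 0 had an unadjusted p under 0.05. The R-spondin receptor gene Lgr4 was 6.10 and 6.22 in WT cultures against 6.90 and 6.37 in Hem1 KO cultures (difference 0.47), and the ligase gene Znrf3 was 8.18 and 7.71 in WT cultures against 8.67 and 7.72 in Hem1 KO cultures (0.25, and -0.22 without Hem1 KO replicate 1).

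Inside the cell, 1 of 28 measured pathway genes was higher (3.57%, against 1.48% of all genes) and 0 were lower, with a median of 0.01. It was Nkd2, whose product binds Dishevelled and restrains the signal, at 5.76 and 5.11 in WT cultures against 7.42 and 7.65 in Hem1 KO cultures. Its rise was at least 3.58-fold (fitted difference 2.10, interval 1.37 to 2.82, adjusted p = 0.00457). Of 17 nuclear mediators limma called 0. At an unadjusted p under 0.05 there were 3 higher and 0 lower, beside 3.63% and 1.57% of all genes. They were led by the beta-catenin cofactor genes Pygo1 (1.46, adjusted p = 0.0639, with 0.000230 to 0.307 over all alternatives) and Bcl9l (0.73). Without Hem1 KO replicate 2 Pygo1 was called, at 1.87.

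Among 25 measured genes often used as beta-catenin targets, 2 were higher (8%, against 1.48% of all genes) and 0 lower, with a median of 0.22. Of the 25, 6 lay below background on all arrays. Ccn5, a matricellular protein also known as WISP2, was 8.40 and 8.23 in WT cultures against 10.68 and 10.26 in Hem1 KO cultures (4.46-fold, difference 2.16, SE 0.32, adjusted p = 0.00294). Bmp4, a bone morphogenetic protein gene, was 5.42 and 4.84 in WT cultures against 8.81 and 6.48 in Hem1 KO cultures. The fitted difference was 2.51 (interval 1.30 to 3.72, adjusted p = 0.0399). With WT values raised to background, the means were 3.86-fold apart. The knockouts were far apart, and the difference of Bmp4 was 1.34 without Hem1 KO replicate 1 and 3.68 without Hem1 KO replicate 2. Axin2, the most widely used readout of beta-catenin signalling, was named after its values were seen. It was 5.69 and 5.24 in WT cultures against 6.07 and 4.998 in Hem1 KO cultures (difference 0.07, interval -0.76 to 0.90), above background on 1 array. Without Hem1 KO replicate 2 the list had 4 genes higher, and without Hem1 KO replicate 1 it had 1 lower.

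**Figure D4:**
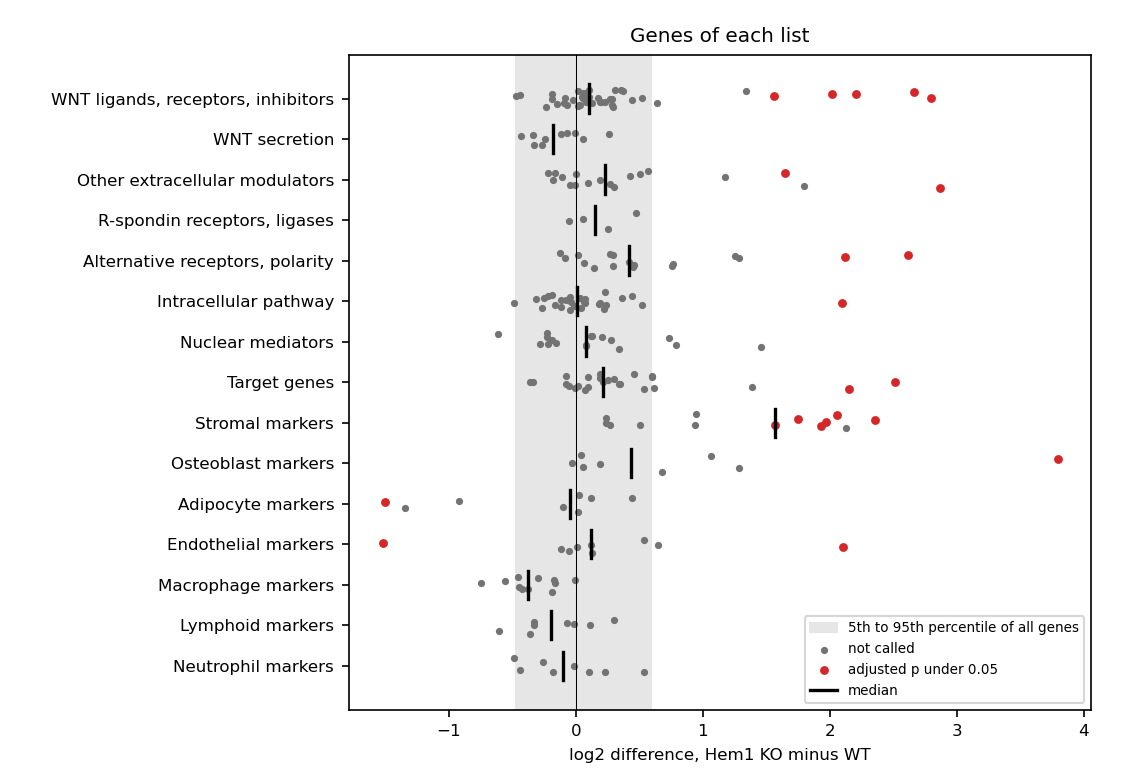
Log2 difference, Hem1 KO minus WT (x axis), of each gene of the 44 and of the pathway and cell marker lists, with called genes in red, medians as black bars and the 5th to 95th percentile of all genes (-0.47 to 0.59) in grey. The stromal markers have the highest median, 1.57, and the WNT pathway lists have medians of -0.18 to 0.42 with single genes to the right.

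Markers of other cell types moved beside these genes. Of 13 stromal and fibroblast markers measured, 6 were higher in the Hem1 KO cultures (46.2%, against 1.48% of all genes) and 0 lower. Their median difference was 1.57. The called ones were Pdgfrb (2.36), Cxcl12 (2.06), Col1a1 (1.97), Col1a2 (1.94), Acta2 (1.75) and Col3a1 (1.57). Without WT replicate 2 only 3 markers were called, and the calls of Col1a2 (1.58), Acta2 (1.495) and Col3a1 (1.17) were lost. The mean log2 signal of the list was 7.41 and 7.04 in WT cultures against 8.81 and 8.25 in Hem1 KO cultures, and 9 to 10 of the 13 lay above background on each array. The stromal markers Lepr, Lum and Thy1 lay below background on all arrays. The part of stromal cells in the differences of Sfrp4, Dkk3, Rspo2, Rspo3, Fzd2 and the pathway genes was not tested.

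Of 8 osteoblast markers, Ibsp was higher (12.5%, against 1.48% of all genes) and 0 were lower, with a median of 0.43. Dmp1 and Phex lay below background on all arrays. Both WT values of Ibsp were under background, so that its rise was at least 8.62-fold (fitted difference 3.79, interval 2.81 to 4.78). Ibsp stood at 2.97 without Hem1 KO replicate 1 and at 4.62 without Hem1 KO replicate 2, where 2 osteoblast markers were called. The mean of the list was 6.70 and 6.36 in WT cultures against 7.83 and 7.004 in Hem1 KO cultures. Of 9 endothelial markers, Cdh5 was higher and Vwf lower (-1.52), beside 1.48% and 0.133% of all genes, with a median of 0.12. Both WT values of Cdh5 were under background, so that its rise was at least 1.86-fold (fitted difference 2.11). Tek, Erg and Cldn5 lay below background on all arrays. The call of Vwf was lost without either WT array (-1.52 both times), and without Hem1 KO replicate 2 there were 2 endothelial markers higher. Of 8 adipocyte markers, 1 was called lower, beside 0.133% of all genes, with a median of -0.04 for the list. At an unadjusted p under 0.05, 3 of the 8 were lower and 0 higher, beside 1.57% and 3.63% of all genes. Adipoq and Lep did not reach background on any array. The called gene was Lpl, 2.83-fold lower, which macrophages also express. It was not called without WT replicate 2 (-1.27), after quantile normalization (-1.41) or when genes below background were dropped (adjusted p = 0.0685, with 7.32e-07 to 0.464 over all alternatives), with 0 adipocyte markers called in each. By contrast, 2 markers of this list were lower without WT replicate 1 or without Hem1 KO replicate 1.

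The 11 macrophage markers had a median of -0.37. All 11 differences were below 0, and 6 of the 11 had both Hem1 KO values below both WT values, beside 13.3% of all genes. Of the 12764 genes above background on both arrays of a genotype, 2446 had this separation, and their median difference over all 12764 was -0.04. After quantile normalization the median of the 11 was -0.27. Limma called 0 of the 11, beside 1.48% of all genes higher and 0.133% lower, and 1 was lower by unadjusted p alone. Those with the smallest p were Fcgr1 (-0.74) and Ctss (-0.55), and both were called lower with an intensity trend (adjusted p = 0.000749 and 0.0172, with 0.000749 to 0.9999 and 0.0172 to 0.999997 over all alternatives). For 8 lymphoid and 8 neutrophil markers limma called 0, beside the same shares of all genes, and 0 had an unadjusted p under 0.05. Cd79b (-0.61, and 0.01 without WT replicate 1) and Cd79a (-0.36) had the smallest p among the first, and Camp (0.54) and S100a8 (-0.44) among the second.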

How the data were processed

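RNA of 4 macrophage cultures was measured on Affymetrix arrays. The deposited log2 values were made by the authors with RMA, per the submitters' processing notes; version, settings and genome build are not given in the sources used here. Medians of the named genes differed between arrays (6.82 and 6.42 in WT, 6.95 and 6.49 in Hem1 KO), so that a normalization across arrays is not visible. The main fit used the values as deposited, without correcting for this. The number of arrays limits precision. Of 29129 probe sets and controls, 19572 name 1 gene, 0 several and 9557 none in the platform annotation. The brightest probe set per gene left 19505 genes, all tested with limma 3.58.1 in R 4.3.3 (genotype only, two-sided, no filter). An exact permutation test of 2 against 2 arrays cannot go under p = 0.333. On simulated arrays with 200 genes changed 4-fold, the fit recovered a median of 88.5%, with a median of 8 false calls. Whether this recovery and this count of false calls hold for the measured arrays, whose medians and spreads differ, was not tested. The 2 arrays of a genotype came from distinct mice, per the series' design text. Genes given array by array are those called, those at an unadjusted p under 0.05 and those above background on both arrays of a genotype (Wnt5b, Fzd4 and Dkk2 were added after their values were seen); from each list, at most 6 called genes or, with none called, the 2 of smallest p. Members, lists, rule and alternatives were chosen with earlier results of these data known, as was the background. Alternatives left out each array, blocked on replicate number, centred or quantile normalized the arrays, dropped dim genes, let the prior follow intensity, averaged probe sets, or changed the threshold.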

Additional observations from a re-analysis of the deposited data

How the results depend on the processing

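The count of the 44 genes called higher was 4 to 6 and that called lower 0 under all 11 alternatives, with the same 5 genes in 10 of them; without WT replicate 2, 1 of the 5 was lost. Among genes above background, Sfrp4 and Rspo3 entered only through the Hem1 KO arrays, so that their calls there are no support. Over all genes, 288 were called higher, against 185 to 545 when single arrays were left out, 620 with a replicate block and 183 among genes above background. For genes called lower the count of 26 became 26 to 101 with single arrays left out, 199 with the replicate block, 70 after centring, 16 after quantile normalization, 11 among genes above background and 205 with an intensity trend. Whether arrays of the same replicate number were prepared together is not given. Deviations of the replicate 1 arrays from their genotype means correlated at 0.24 over all genes. Replicate 1 also had the higher median in each genotype (6.82 against 6.42 in WT, 6.95 against 6.49 in Hem1 KO). A pairing by replicate number therefore cannot be set aside. The block changed no call among the 44 genes. Nckap1l ran from -1.62 to -1.20 with single arrays left out and was not called among genes above background (-1.41, adjusted p = 0.0798). The uncalled genes Znrf3 (-0.22 to 0.73) and Cd79b (-1.22 to 0.0083) changed sign with 1 array left out. Sfrp1 and S100a8 had no value among genes above background. Bmp4 was not called after quantile normalization (adjusted p = 0.165) or among genes above background (0.231), nor were Col1a2 and Col3a1 among the latter, and Cdh5 was not after quantile normalization. List counts moved by more than 1.5 times for other modulators and alternative receptors (each 2, and 4 with the block), target genes (2, and 1 among genes above background), nuclear mediators (0, and 1 with the block), osteoblast markers (1, and 3 with the block), adipocyte markers (1 lower, 3 with the block, and 0 after quantile normalization or among genes above background), endothelial markers (1 higher, and 0 after quantile normalization) and macrophage markers (0 lower, and 2 with an intensity trend), beside the array effects given above. Centring moved the median of all genes from 0.01 to -0.09 and that of the 44 from 0.11 to 0.01. With the 99th percentile as background, 16 of the 44 genes lay above it in a genotype, and with the 90th, 32. Fits without an array leave 1 culture in a genotype, which is assumed to vary like the other genotype. In these fits and in that with an intensity trend, limma's prior degrees of freedom were infinite. A gene's own spread thus did not enter, and calls and p-values there do not measure it. The cause of these changes was not tested.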
